A study of Mus musculus with 2 samples.

Results

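The mouse major histocompatibility complex, called H2, was examined as a stretch of 3.5 Mb on chromosome 17, positions 33800001 to 37300000 of the mm9 genome build. Its members were all DNase-hypersensitive sites (peaks of open chromatin) that touched this stretch. There were 84 peaks among the 13492 of cells without RANKL and 93 among the 16447 of cells given RANKL, or 177 of 29939 in all. The bounds were set by position and not by any measured value, though the region was chosen with earlier results of these data known. The cells were RAW264, a mouse macrophage-like line used at passages 3 to 7, and RANKL is the cytokine that turns such cells into bone-resorbing osteoclasts. The untreated cells gave 1 library, and cells that received a GST-RANKL fusion protein for 24 hours, at 234 ng/ml, gave the other. Nuclei of both were digested with DNase I at 2 U/ml for 5 minutes, and fragments of 100 to 500 bp were sequenced. With 1 library per condition no value has a replicate error and no test between conditions was possible, so every difference below describes these 2 libraries.

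The complex holds genes by which the immune system tells cells and invaders apart. Class I molecules show fragments of a cell's own proteins to cytotoxic T cells, and class II molecules of macrophages and other presenting cells show fragments of engulfed material to helper T cells. Class III genes, between them, encode complement factors, cytokines and stress proteins. Osteoclasts arise from the macrophage lineage, in which many of these genes are active or can be induced.

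Along the chromosome, the GRCm38 RefSeq gene table places 169 protein-coding genes from H2-K1 to H2-M2, of which 16 are olfactory receptor genes. In that table Tapbp, which helps load class I molecules, lies before the class I gene H2-K1. The class II block follows, from H2-Oa through H2-DMa, H2-Ob, H2-Ab1, H2-Aa and H2-Eb1 to H2-Eb2. Inside it lie Psmb9 and Psmb8, subunits of the immunoproteasome that cuts proteins into peptides, and Tap1 and Tap2, which carry the peptides to class I molecules. Next come the complement genes C4b, Cfb and C2, the heat shock genes Hspa1b and Hspa1a, and the cytokine genes Ltb, Tnf and Lta. The class I genes H2-D1, H2-Q, H2-T and H2-M end the row. The peak positions are on mm9 and the table is on another build, so no peak was assigned to a gene and sites are named by position. For the same reason the label of the region could not be checked gene by gene, and no site's sequence is shown.

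Open chromatin was dense here in both conditions. The region held 24.0 peaks per Mb without RANKL and 26.6 per Mb with RANKL. Among 10264 windows of the same length, placed every 250 kb along chromosomes 1 to 19 and X, the median was 3.71 per Mb without and 5.14 per Mb with RANKL. Only 49 windows (0.477%) held more peaks without RANKL, and 78 (0.760%) held more with RANKL. Neighbouring windows overlap, so these are not independent regions. Both flanks held fewer peaks. The 3.5 Mb below the region held 30 peaks without and 50 with RANKL (8.57 and 14.3 per Mb), still above the median window, and the 3.5 Mb above it held 2 and 5.

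**Figure D1:**
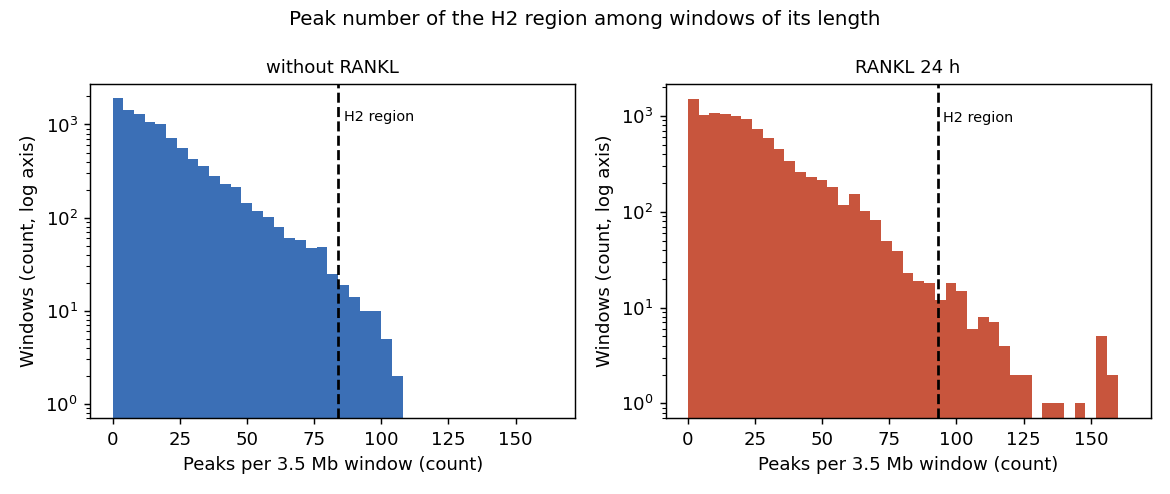
Number of peaks in windows of 3.5 Mb on chromosomes 1 to 19 and X, for the list without RANKL (left) and the list RANKL 24 h (right); bars count windows on a log axis. The dashed lines mark the H2 region, with 84 and 93 peaks, far to the right of most windows.

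Peaks without RANKL covered 4.84% of the region's bases and RANKL peaks covered 0.936%. The contrast follows the widths of the peaks, which differ between the lists over the whole genome. The median width in the region was 1774.5 bp without RANKL (quartiles 1427.5 and 2268.5 bp), against 1738 bp in the rest of the list. With RANKL it was 289 bp (quartiles 174 and 465 bp), against 232.5 bp in the rest of that list.

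The median site of the complex ranked above the middle of each list, more clearly in the list without RANKL. The authors' deposited score of each peak was used only as a percentile, the share of peaks of the same list that score lower, because it cannot be compared between libraries. The median percentile in the region was 61.3 without RANKL and 58.6 with RANKL, where each whole list has 50.0. In the rest of chromosome 17 it was 51.2 without and 54.9 with RANKL. No interval was computed for these medians. Of the 84 peaks without RANKL, 16 (19.05%, 95% Wilson interval 12.1 to 28.7%) were in the highest 10% of their list, against 9.94% of the peaks elsewhere. For RANKL peaks the share was 11 of 93 (11.8%, interval 6.73 to 19.9%) against 9.99% elsewhere, a difference within counting error. All such intervals cover counting error only and treat neighbouring peaks as independent.

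About as many sites of the complex had a counterpart in the other list as elsewhere in the genome. Shared peaks are those with at least 1 bp in common with any peak of the other list. Without RANKL, 54 of 84 peaks were shared (64.3%, interval 53.6 to 73.7%), against 60.7% of the whole list. With RANKL, 66 of 93 peaks were shared (71.0%, interval 61.1 to 79.2%), against 65.7% of the whole list. The remaining 30 peaks without RANKL (35.7%) stand beside a background of 39.3% in that list, and the 27 RANKL-only peaks (29.0%) beside 34.3%. Both backgrounds lie inside the region's intervals (26.3 to 46.4% and 20.8 to 38.9%), so neither share set the complex apart. Joined over both lists, the peaks made 111 sites, of which 54 were called in both, 30 were called only without RANKL and 27 only with RANKL.

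**Figure D2:**
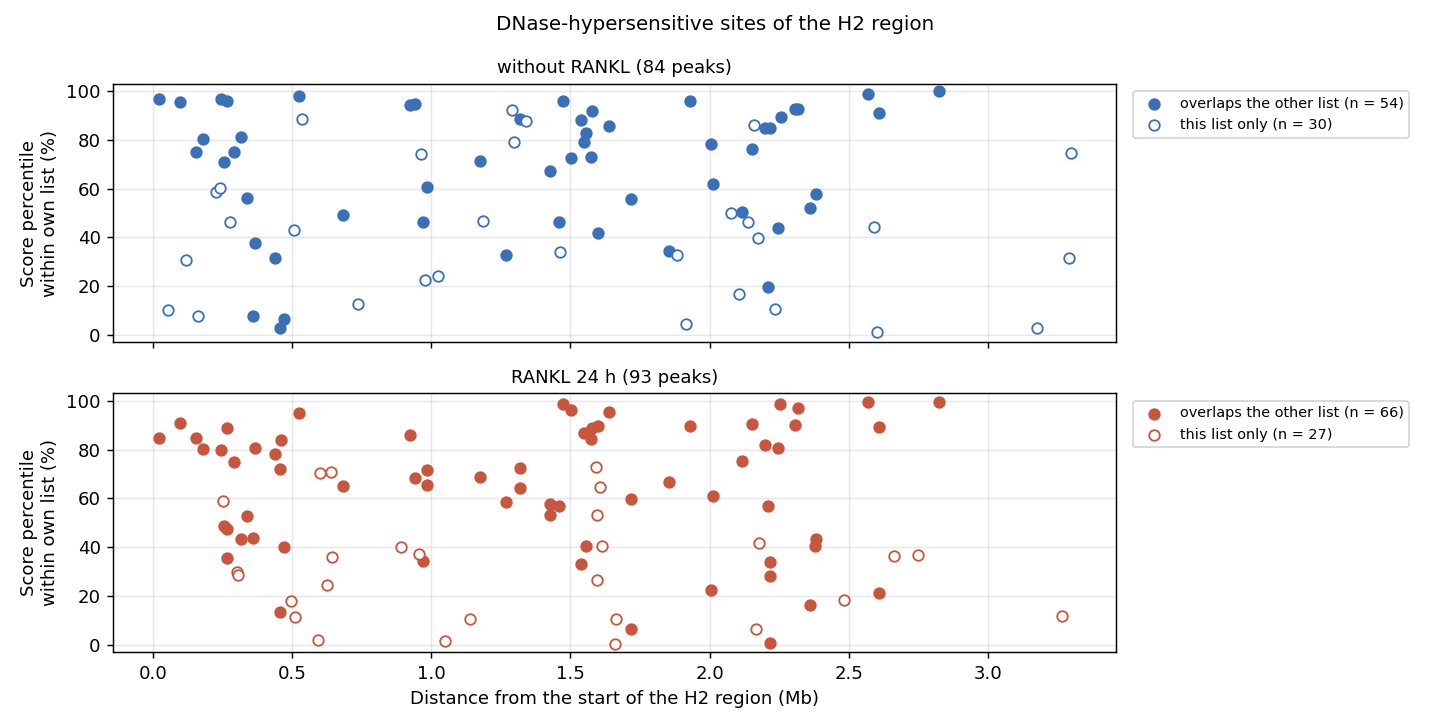
Each point is a peak of the H2 region, placed by distance from the region's start (Mb) and by its score percentile within its own list (%), without RANKL above and RANKL 24 h below. Filled points overlap the other list (54 and 66) and open points do not (30 and 27); points thin out past 2.5 Mb.

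The ratio of RANKL peaks to peaks without RANKL was 1.11 (95% exact conditional Poisson interval 0.815 to 1.51), against 1.22 in the rest of the lists and 1.15 in the rest of chromosome 17. Among peaks of one list only it was 0.900 (interval 0.515 to 1.57), against 1.06 over the whole lists. Neither ratio differed from that of the genome beyond counting error.

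The highest-scoring sites of the complex were called in both conditions, as most such sites were elsewhere. In the highest 10%, 15 of 16 peaks without RANKL and 11 of 11 with RANKL were shared, against 99.1% and 95.2% elsewhere. The top site lay at 36620905 to 36622130 without RANKL, with a score of 1518.34 and rank 28 of 13492. Its RANKL peak, at 36621552 to 36621921, scored 2068.91 and ranked 60 of 16447. The second site was likewise the same in both lists. It lay at 36367517 to 36369219 without RANKL (score 391.75, rank 166) and at 36368168 to 36368620 with RANKL (score 951.55, rank 87). Both sites lay in the thinly filled upper part of the region. The top site is followed by the longest stretch free of peaks of either list, 351 kb from 36622131 to 36973145.

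Below the first 2 places the lists ranked different shared sites highest. Without RANKL the next were at 34323499 to 34325604 (rank 302, percentile 97.8), 33821125 to 33823245 (rank 436) and 34045428 to 34047594 (rank 448). With RANKL they were at 35271805 to 35272900 (rank 222, percentile 98.7), 36052952 to 36053821 (rank 227) and 36116077 to 36116862 (rank 462). The site at 35271805 to 35272900, at 1096 bp, was also the widest RANKL peak of the region. Its broad counterpart, at 35271302 to 35273543, stood at percentile 96.0 in the list without RANKL.

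Of the 84 broad peaks, 45 held exactly 1 RANKL peak (53.6%, interval 43.0 to 63.8%), against 43.9% elsewhere. All 45 of these RANKL peaks lay wholly inside the broad peak, as did 99.7% elsewhere. The centres were a median of 152.5 bp apart, as at the 5886 such sites elsewhere (152.5 bp). The broad peak was a median of 4.91 times as wide as the RANKL peak (range 2.05 to 13.1), against 5.77 times elsewhere. Across the 45 sites the 2 percentiles had a Spearman rho of 0.58, and across the sites elsewhere 0.56. This is a description over sites that share the same 2 libraries.

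Of the 45 sites, 27 (60.0%, interval 45.5 to 73.0%) stood in the upper 50% of both lists and 3 (6.67%, interval 2.29 to 17.9%) in the lower 50% of both. Elsewhere these shares were 50.0% and 17.9%. Another 6 (13.3%) were in the upper 50% only without RANKL and 9 (20.0%) only with RANKL, against 13.0% and 19.1% elsewhere. The share in the upper 50% of both and the shares in that of either list alone were thus within counting error of the rest. For the lower 50% of both, the interval ended at 17.86%, just under the 17.89% elsewhere. In the highest 10% of both lists were 7 sites (15.6%, interval 7.75 to 28.8%), against 9.72% elsewhere. In the highest 10% without RANKL were 13 sites (28.9%, interval 17.7 to 43.4%), above the 13.1% elsewhere. With RANKL there were 11 (24.4%, interval 14.2 to 38.7%), against 18.8%.

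Some sites held very different places in the 2 lists. The broad peak at 35803638 to 35805358 stood at percentile 78.1 without RANKL, and the RANKL peak inside it stood at percentile 22.5 of its list. At 35336742 to 35339940 the percentiles were 88.0 without and 33.0 with RANKL, and at 35354700 to 35358005 they were 82.8 and 40.6. The opposite order was seen at 35398401 to 35400748, with percentile 41.8 without and 89.8 with RANKL. At 34238074 to 34239312 they were 31.6 and 78.1, and at 34167089 to 34169528 they were 37.8 and 80.8. A percentile depends on all other peaks of its list, so these pairs of values do not measure a change in accessibility. These 6 sites were picked as the extremes.

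**Figure D3:**
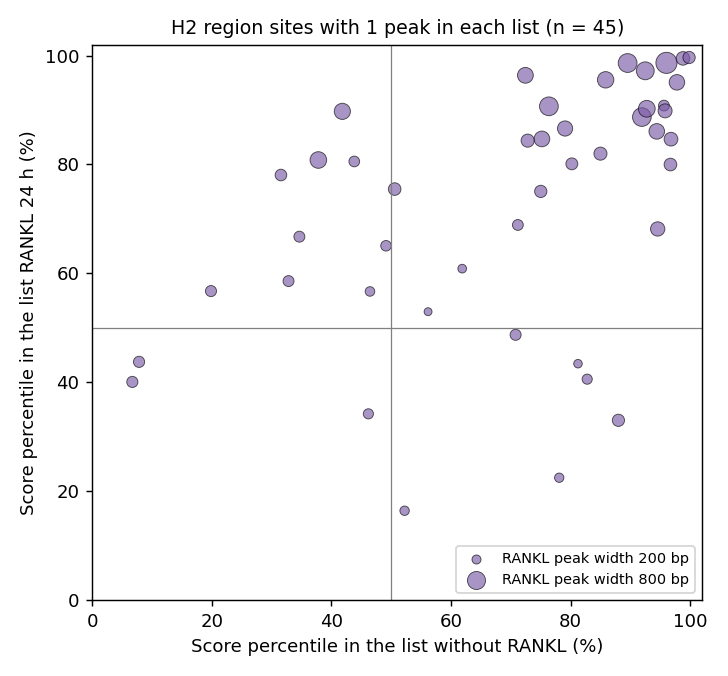
Score percentile in the list without RANKL (x, %) against that in the list RANKL 24 h (y, %) for the 45 sites of the H2 region with 1 peak in each list; point area follows the width of the RANKL peak. Most points (27) lie at the upper right, and the 3 in the lower 50% of both lists lie at the lower left.

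Broad peaks that held several RANKL peaks were 9 of 84 (10.7%, interval 5.74 to 19.1%), against 16.8% elsewhere, again within counting error. Each of 3 held 3 RANKL peaks. The broad peak at 34065621 to 34069336 stood at percentile 96.1 and held RANKL peaks at percentiles 88.9, 47.5 and 35.6. The broad peak at 36015823 to 36017569 stood at percentile 84.9 and held 3 weak RANKL peaks, at 0.775, 34.1 and 28.3.

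The third was the widest peak of the whole list without RANKL. It spanned 7971 bp, from 34253342 to 34261312, while no peak outside the region was wider than 7522 bp. Its score, 51.99, was close to the lowest of the list (50.0) and gave it rank 13080 of 13492. The 3 RANKL peaks in it were 609, 588 and 766 bp wide and stood at percentiles 72.1, 13.5 and 83.7. The widest stretch of open chromatin called without RANKL was therefore one of the weakest by score, and 2 of the 3 RANKL peaks in it were in the upper 50% of their list.

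A few strong sites were called only without RANKL. In the upper 50% of that list, 10 of 51 peaks of the region were unshared (19.6%, interval 11.02 to 32.5%), against 16.9% elsewhere, within counting error. The highest 20% of that list held 28 peaks of the region, and 4 of these (14.3%, interval 5.70 to 31.5%) lacked an overlapping RANKL peak. Elsewhere 105 of 2670 such peaks (3.93%, interval 3.26 to 4.74%) lacked one. The 20% limit was chosen after the values were seen, and the count rests on 4 sites. At the highest 10%, 1 of 16 was unshared, against 0.900% elsewhere. In the RANKL list all 26 peaks of the region in the highest 20% were shared, so the unshared part was 0% (interval up to 12.9%), against 6.16% elsewhere, within counting error.

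The strongest of these sites lay at 35088758 to 35090541 (score 233.97, percentile 92.1), 20.4 kb from the nearest RANKL peak. A weaker one at 35096195 to 35097332 (percentile 79.1) came next to it, 21.2 kb from the nearest RANKL peak. On the far side of a shared site, the one at 35137438 to 35140012 (percentile 87.8) lay 18.3 kb from the nearest RANKL peak. These 3 fell within 51.3 kb, in the step from 35.05 to 35.30 Mb. The shared site between them, at 35117966 to 35119920, stood at percentile 88.7 without RANKL, much like its unshared neighbours, and held 2 RANKL peaks at percentiles 72.5 and 64.3. The others of the 5 highest were at 34333776 to 34336145 (percentile 88.6, 9.03 kb away) and at 35957356 to 35960757 (percentile 86.2, 5.68 kb away).

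RANKL-only sites of the region held lower places in their list. The highest of the 27, at 35392576 to 35393593, had a score of 113.08 and percentile 72.8, and at 1018 bp it was far wider than the median RANKL-only peak of the region (152 bp). The next stood at 34441850 to 34442066 (percentile 70.8), 34400127 to 34400365 (70.4), 35405296 to 35405612 (64.7) and 34052793 to 34053029 (59.1). Of the 27, 21 (77.8%) were in the lower 50% of the RANKL list, as were 78.7% of RANKL-only peaks elsewhere. Whether the chromatin at these sites was closed without RANKL was not measured.

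Cut into 14 steps of 250 kb by peak centre, the region was uneven. The first 10 steps, up to 36.30 Mb, held 76 peaks without RANKL (30.4 per Mb) and 86 with RANKL (34.4 per Mb). The last 4 held 8 and 7 peaks (8.00 and 7.00 per Mb). The fullest step without RANKL was that from 35.80 to 36.05 Mb, with 14 peaks, a number reached in 0.130% of the 5382 windows of 250 kb with any peak on chromosomes 1 to 19 and X. The fullest with RANKL was that from 34.05 to 34.30 Mb, with 18 peaks, a number reached in 0.279%. In those windows the median was 2 peaks in each list. Each of these steps was picked as the fullest of 14 and is itself among the windows. The percentages therefore place the step and do not give a chance of finding it.

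RANKL-only peaks outnumbered peaks found only without RANKL in 4 of the 14 steps, were outnumbered in 6 and equalled them in 4. Over the genome 40.4% of windows fell in the first class, so 4 of 14 is no excess. The counts differed between steps. The step from 35.30 to 35.55 Mb held 9 peaks without RANKL, all shared, and 17 RANKL peaks, 7 of them RANKL-only. At least 7 RANKL-only peaks were found in 30 of the 5382 windows (0.557%), the step itself included, and it was picked as the highest of 14. The step was also among the fullest, and its RANKL-only share, 41.2% (interval 21.6 to 64.0%), was within counting error of the 34.3% of the whole list. Its unshared share without RANKL, 0% (interval up to 29.9%), was below the 39.3% of the whole list, but rests on 9 peaks. The first step, up to 34.05 Mb, was the reverse in counts, with 10 peaks without RANKL, 5 of them unshared, and 5 RANKL peaks, all shared. Its unshared share was 50.0% (interval 23.7 to 76.3%) without and 0% (interval up to 43.4%) with RANKL. Both were within counting error of the 39.3% and 34.3% of the whole lists. In the step from 34.05 to 34.30 Mb, 1 of 11 peaks without RANKL was unshared (9.09%, interval 1.62 to 37.7%), which is below 39.3%. No interval of a step was adjusted for the number of steps, 14.

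The step from 34.30 to 34.55 Mb held 5 peaks without RANKL, 3 unshared, and 8 RANKL peaks, 6 of them RANKL-only. The interval of its RANKL-only share, 40.9 to 92.9%, lay above the 34.3% of the whole list. That share rests on 8 peaks, and its interval was not adjusted for the number of steps. The unshared share without RANKL (interval 23.1 to 88.2%) was within counting error of the 39.3% of the whole list. Here 5 RANKL-only peaks followed each other from 34394687 to 34442203, over 47.5 kb, with no peak of the other list between them. Their percentiles ran from 1.89 to 70.8. Runs of 5 or more made up 3.08% of all 3438 runs of RANKL-only peaks on chromosomes 1 to 19 and X. In the step from 35.30 to 35.55 Mb, 3 RANKL-only peaks lay within 2.835 kb, at 35392576 to 35395410. Next to them lay the shared site at 35398401 to 35400748, whose percentile was 41.8 without and 89.8 with RANKL. Then came RANKL-only peaks at 35405296 and 35411623. Closely spaced peaks were counted separately here. Joining those under 1 kb apart left 22.6 RANKL intervals per Mb in the region in place of 26.6 peaks. It would also turn the 3 peaks within 2.835 kb into 1 interval. In the run of 5 it would join the peaks at 34441850 and 34442081. The lengths of these runs and the RANKL-only counts of their steps thus depend on how close peaks are split. In all, 2 of the region's 16 runs of RANKL-only peaks reached 3 or more, against 13.5% over chromosomes 1 to 19 and X. Of the 24 runs of peaks found only without RANKL none did, against 10.2%.

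**Figure D4:**
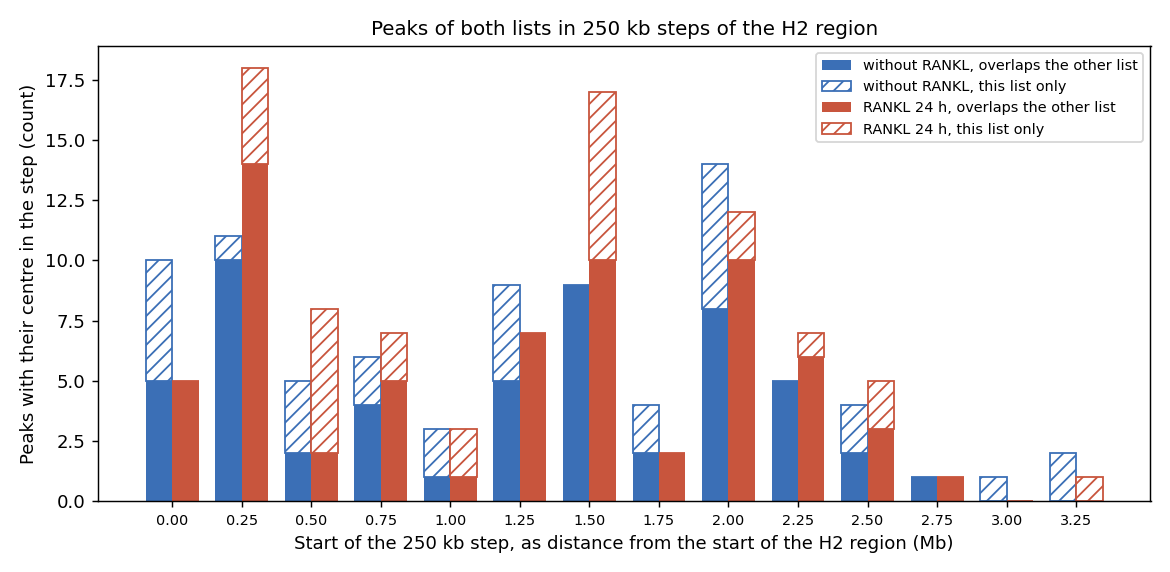
Peaks with their centre in each 250 kb step of the H2 region (count), by distance of the step's start from the region's start (Mb). Solid bars overlap the other list and hatched bars do not; the seventh step has 7 RANKL-only peaks and none found only without RANKL, and the first step has 5 found only without RANKL and no RANKL-only peak.

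The step from 35.80 to 36.05 Mb, the fullest without RANKL, held 6 unshared peaks of its 14 and 2 of 12 with RANKL. The unshared share without RANKL, 42.9% (interval 21.4 to 67.4%), was within counting error of the 39.3% of the whole list. The median percentiles of this step were near the middle of each list, at 50.3 without and 49.3 with RANKL. The step from 36.05 to 36.30 Mb, next to it, had 5 peaks without RANKL, all shared and with a median percentile of 89.5, and 7 with RANKL, 1 of them RANKL-only.

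Strong sites were spread over most steps. In 7 of the 13 steps with peaks in both lists, the highest-scoring peaks of the 2 lists overlapped. Examples not yet given are the site at 35726928 to 35728447, at percentile 95.8 without RANKL and 89.8 with RANKL, and the site at 34973207 to 34974781, at 71.2 and 68.9. In the step from 34.55 to 34.80 Mb the top peak without RANKL was at 34739811 to 34743217 (percentile 94.5) and the top RANKL peak at 34723918 to 34724515 (percentile 86.1). In the step from 35.30 to 35.55 Mb they were at 35377554 to 35380525 (percentile 91.9) and 35301866 to 35302478 (percentile 96.4). The top RANKL peaks of the first step and of that from 35.80 to 36.05 Mb, at 33896913 to 33897200 and 35949972 to 35950834, stood at percentiles 90.8 and 90.7. The top peak without RANKL from 36.05 to 36.30 Mb, at 36105667 to 36107520, stood at percentile 92.7.

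Past 36.30 Mb the sites were scattered. The step from 36.55 to 36.80 Mb held 1 peak in each list, the top site described above. The step from 36.80 to 37.05 Mb held 1 peak without RANKL (percentile 2.97) and none with RANKL. The last step held 2 peaks without RANKL and 1 with RANKL, none shared. The last peak of the region, at 37094532 to 37096398, was found only without RANKL and stood at percentile 74.6, 29.7 kb from the nearest RANKL peak. A stretch of 203.6 kb free of peaks reached from there to the region's upper bound.

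**Figure D5:**
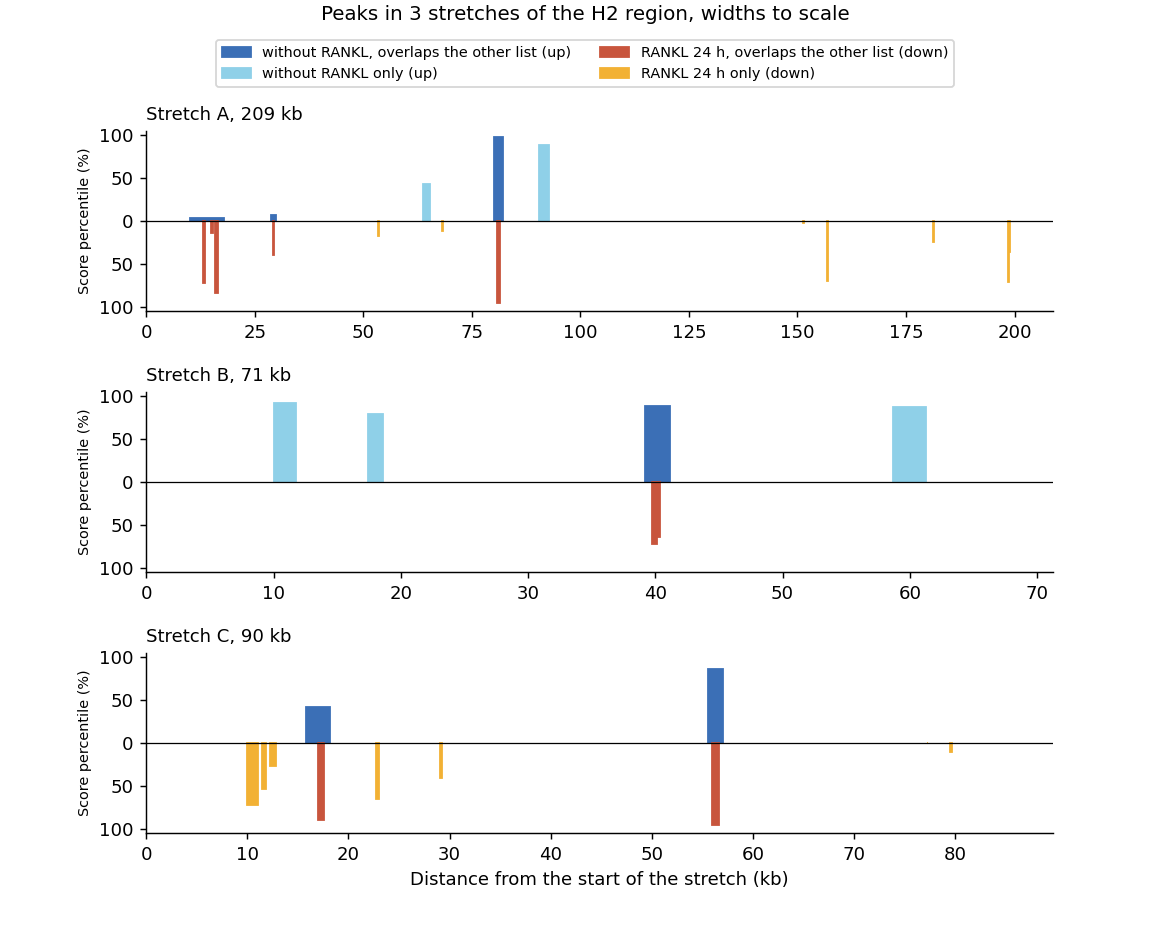
Peaks in stretches A (34253342 to 34442203), B (35088758 to 35140012) and C (35392576 to 35462248), each shown with 10 kb on both sides, by distance from the start of each stretch (kb); bars without RANKL point up and RANKL bars point down, bar height is the score percentile (%), and outlines have a fixed thickness, so the narrowest peaks look wider than they are. A shows the low, 7971 bp wide peak and the run of 5 RANKL-only peaks, B the 3 neighbouring peaks found only without RANKL, at percentiles 92.1, 79.1 and 87.8, and C the close RANKL-only peaks beside a shared site.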

How the data were processed

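DNase-seq peaks of 2 RAW264 libraries were used. Per the submitters' processing notes, the authors used Bowtie2 2.0.0 and MACS2 on mm9. What the score means, the threshold and any control library were not stated there. The authors deposited 1 peak list per library with a score per peak, from 50.0 upwards. Read depth is unknown, so no depth-based interval is given.

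Positions are 1-based. Overlaps, percentiles (ties averaged) and intervals were computed with scipy 1.17.1, pandas 2.3.3 and numpy 2.4.6 in Python 3.11.15. The overlap code was tested on simulated data, partial overlaps and touching ends included, and classified 2000 of 2000 peaks correctly. The region and lists were chosen with earlier results of these data known. Named sites were the 5 highest shared and unshared peaks per list, broad peaks with 3 RANKL peaks, the widest peaks, the longest gap and the top peak of each step. The rank extremes, runs, limit of 20% and stretches A to C were added after the values were seen. No mm9 genome or annotation was used. Alternatives were other overlap rules, score limits, merged peaks, and other bounds and steps.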

Additional observations from a re-analysis of the deposited data

How the results depend on the processing

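Of 37 alternative values, 32 stayed within the counting interval of the reported value or within 1.5 times the reported count. Some of these could hardly move. An overlap of 50% of the shorter peak, and selection by peak centre, both gave 64.3% and 71.0% again. All 45 RANKL peaks of the sites with 1 peak per list lay inside the broad peak, and no peak crossed a bound of the region. A required overlap of 50% of both peaks gave a share of 0% for peaks without RANKL and 0% for RANKL peaks, which follows from widths of 1774.5 and 289 bp. Keeping only the upper 50% by score left 14.6 peaks per Mb without and 15.1 per Mb with RANKL, since fewer peaks were counted. With steps of 500 kb, 2 of 7 steps held more RANKL-only peaks, since fewer steps were counted. The ratio of RANKL peaks to peaks without RANKL ran from 0.940 (peaks closer than 1 kb merged) to 1.21 (region narrowed by 250 kb on each side), on both sides of 1. No paired analysis was possible because each condition had 1 library, which also means that none could be left out. Read depth is unknown, and its part in which sites were called was not tested.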
